A study of Mus musculus with 22 samples.

Results

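Of the 566 mouse miRNAs measured in fallopian tubes, metastatic tumors and plasma of a mouse model of tube-derived ovarian cancer, 3 are described here, namely miR-204, miR-135a and miR-135b. They were picked by name, on the probes listed as mmu-miR-204, mmu-miR-135a and mmu-miR-135b, as a set of miRNAs abundant in the control tube and lost in metastases. The values that chose them were those of metastatic tumors against control tubes, so that comparison is given below as a description, without a test, and no numeric threshold was part of the choice. miR-204 and miR-135a matched this description, which follows from the choice and is no finding. miR-135b did not match it, as its counts lay near background in the control tubes and overlapped between control tubes and metastatic tumors.

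A miRNA is a short RNA that guides Argonaute proteins to messenger RNAs, mostly by pairing of its seed with sites in the 3′ untranslated region, and lowers the output of those messages. miR-204 is known from differentiated epithelia such as the retinal pigment epithelium and is encoded within the gene of the ion channel Trpm3. Its close relative miR-211 has the same seed and lies within the related gene Trpm1. miR-135a and miR-135b form a family with a common seed and are known for targeting Apc, an inhibitor of Wnt signaling.

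The mature sequences are shown because the seed, in capitals (bases 2 to 8 from the 5′ end), decides which messages a miRNA can pair with and which panel miRNAs share that property. They are credited to RefSeq (GRCm38.p6) and run 5′ to 3′.
miR-204-5p: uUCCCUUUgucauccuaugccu
miR-211-5p: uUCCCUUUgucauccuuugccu
miR-135a-5p: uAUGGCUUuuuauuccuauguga
The mature miR-204-5p lies at chr19:22750610-22750631 on the plus strand, inside the span of Trpm3 (chr19:22137797-22995410). miR-211-5p lies at chr7:64205831-64205852 on the plus strand, inside the span of Trpm1, and differs from miR-204-5p by A17U, counted from the 5′ end. miR-135a-5p has 2 genes with the same mature sequence. One is Mir135a-1 at chr9:106154140-106154162 on the plus strand, inside the spans of Glyctk and the lncRNA D030055H07Rik, and the other is Mir135a-2 at chr10:92072141-92072163 on the minus strand, inside the span of no other listed gene. The probe therefore cannot tell from which of the genes miR-135a came. The hairpin gene of miR-135b, Mir135b, lies at chr1:132198088-132198184, inside the spans of Lemd1 and the lncRNA Gm29695. Of the panel miRNAs whose mature sequence was matched by name (417), miR-211 was the other one with the seed of miR-204, and the panel held 0 probes for the opposite arms of the members.

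Fallopian tubes came from mice that carry conditional alleles of Brca1 or Brca2, together with further conditional alleles, and a doxycycline-inducible Cre driven through Pax8, a transcription factor of the secretory cells of the tube. The 5 control tubes (CT1 to CT5) were not induced, with Brca1 fl/fl in CT1 and CT3, Brca1 fl/+ in CT2, Brca2 fl/fl in CT4 and Brca2 fl/+ in CT5. Of the 5 doxycycline-induced tubes (FT1 to FT5), FT1, FT3 and FT5 were Brca2 -/+, FT2 was Brca1 -/- and FT4 was Brca2 -/-. The 5 metastatic tumors (M) were Brca2 -/- in M1 and M3, Brca1 -/+ in M2 and M6, and Brca2 -/+ in M4. The samples of a group also differed in the further alleles, which are not compared here. M1 to M4 were peritoneal and M6 was an ovarian tumor, so tumor state and site of the tissue cannot be told apart in M against CT. Plasma came from 3 of the control mice (CS2, CS3 and CS4, the mice of CT2, CT3 and CT4) and from 4 of the induced mice, where TS1 pairs with FT2, TS2 with FT3, TS3 with FT4 and TS4 with FT5. Ages were not given in the sources used here. Some metastatic tumors shared a mouse with an induced tube and the text does not say which, so all were treated as separate samples.

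The NanoString assay counts 1 barcode for each captured miRNA molecule, without amplification. Counts on mouse miRNAs summed to between 70164 and 598321 per tissue sample (100 ng of RNA) and to between 18350 and 269005 per plasma sample (10 ng). For a normalized count, each sample was scaled by the geometric mean of its counts on a fixed set of abundant miRNAs, the top 100 for tissue and the top 30 for plasma, and set back to the scale of counts. A count was called detected when it exceeded the mean plus 2 SD of the 8 negative hybridization controls of its own sample, a level between 18.3 and 67.7 counts in tissue. Samples within a group were separate mice or tumors, with the exception named above. In bulk tissue, fewer cells of a type and less RNA per cell cannot be told apart.

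miR-204 was abundant in every control tube. Its normalized count was 1337 in CT1, 1484 in CT2, 997 in CT3, 1591 in CT4 and 2460 in CT5, a mean of 1574 ± 544 (SD, n = 5). It ranked between 21 and 36 among the 566 miRNAs of those samples, took between 0.543% and 1.47% of all miRNA counts, and stood at least 24.1 times above the detection level.

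In the induced tubes miR-204 spread over a wide range. Its normalized count was 622 in FT1, 61.6 in FT2, 1061 in FT3, 89.5 in FT4 and 1171 in FT5. FT3 and FT5 lay within the range of the control tubes, FT1 lay below it, and FT2 and FT4 lay far below it, at 4.09% and 5.94% of the geometric mean of CT. The counts behind these values were 26 in FT2, which was below its detection level of 36.1, and 45 in FT4, which was 1.48 times its level.

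All 5 induced tubes were below the geometric mean of CT for miR-204, yet the group was not past the threshold. The log2 fold change of FT against CT by edgeR was −1.39 (standard error 0.691, unadjusted p = 0.0557, adjusted p = 0.688 over all 566 miRNAs). The mean of log2 normalized counts, which gives low samples more weight, differed by −2.17, with a two-sided exact permutation p of 0.0238 over 252 splits that is not adjusted for the other comparisons (the smallest p of this design is 0.00794). Abundance in CT was part of the choice of miR-204 and the same CT samples enter here, so this difference is not independent of the choice. Over all miRNAs that edgeR tested, 0% were past the threshold and lower in FT, and 0.177% were lower at an unadjusted p below 0.05. Of the 3 members, 0 were past the threshold by edgeR, by DESeq2 or by limma, and 0 had an unadjusted p below 0.05 in the main edgeR fit. Over the alternatives, the unadjusted p of miR-204 ranged from 0.00695 (limma, pseudocount of 1) to 0.420 (edgeR, positive controls as scaling). It was 0.0106 by edgeR with the replicate block and 0.177 by DESeq2.

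In the metastatic tumors miR-204 was at or near background in every sample. The counts were 13 in M1, 4 in M2, 5 in M3, 13 in M4 and 20 in M6, all below the detection level of the same sample, and the negative controls averaged between 7.75 and 20.4 counts there. With the level set by the 3 negative ligation controls in place of the hybridization controls, M4 (13 against 11.5) was above it, as was FT2 (26 against 22.3). Normalized counts were 34.8, 3.72, 13.8, 31.4 and 13.6 in the same order, a mean of 19.5 ± 13.1 (SD, n = 5), and no M sample overlapped a CT or an FT sample. The geometric mean in CT was 100.2-fold that in M. Because the M values are near background, this ratio has no fixed size, and with each count below its detection level set to that level CT was at least 30.9-fold higher.

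**Figure D1:**
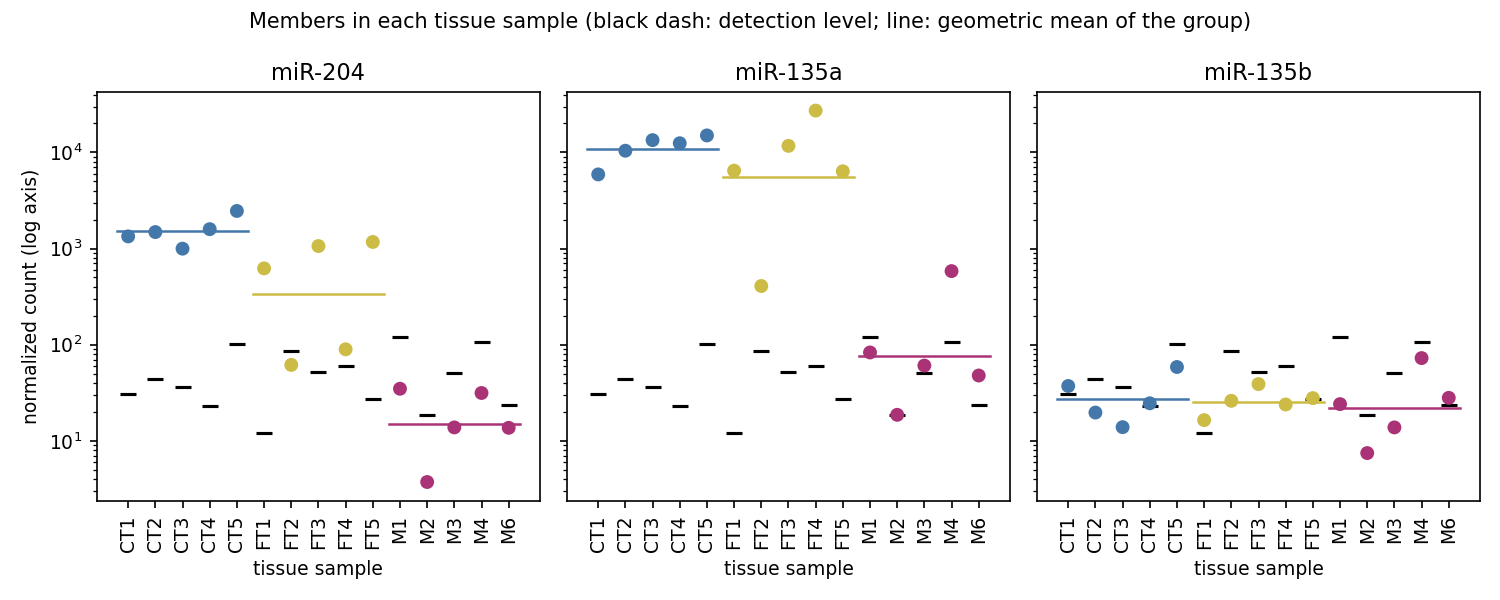
Normalized counts (log axis) of miR-204, miR-135a and miR-135b in each of the 15 tissue samples, with CT in blue, FT in yellow and M in purple. The colored line is the geometric mean of the group and the black dash the detection level of the sample on the same scale. miR-204 lies below the dash in all 5 M samples and in FT2, miR-135a lies above every dash in CT and FT, and miR-135b lies near the dashes throughout.

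miR-135a was among the 4 most abundant miRNAs of every control tube and ranked 1 in CT5. Its normalized count was 5904 in CT1, 10414 in CT2, 13417 in CT3, 12456 in CT4 and 15017 in CT5, a mean of 11442 ± 3516 (SD, n = 5). It took at least 3.99% of all miRNA counts in each of these tubes.

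In the induced tubes miR-135a stayed abundant in 4 samples and was low in FT2. Its normalized count was 6459 in FT1, 407 in FT2, 11694 in FT3, 27238 in FT4 and 6362 in FT5. By normalized count FT4 was the highest of all 15 tissue samples, at 2.50-fold the geometric mean of CT, and FT2 was at 3.74% of it. FT1, FT3 and FT5 lay within the range of the control tubes on that scale. The places of FT4, FT1 and FT5 depended on the scaling. By share of all miRNA counts, FT4 (6.36%) lay below CT3 (7.31%), CT4 (7.19%), FT3 (7.23%) and CT5. FT1 (3.09%) and FT5 (3.57%) lay below CT1 (3.99%), the lowest control tube by share. FT2 was low by share too (0.098%).

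No difference between FT and CT was detectable for miR-135a at this spread. The log2 fold change by edgeR was −0.13 (standard error 0.745, adjusted p = 0.952), and the exact permutation p was 0.508. It was 0.18 without FT2 and −0.88 without FT4, so its sign and size rested on single tubes. The SD of log2 normalized counts was 0.531 in CT and 2.28 in FT for miR-135a, and 0.472 and 2.03 for miR-204. Among the 141 miRNAs whose counts averaged 50 or more in tissue, the median SD was 0.382 in CT and 1.30 in FT, and in FT the members took place 14 (miR-135a) and 20 (miR-204) from the widest spread.

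In the metastatic tumors miR-135a was low but not absent. The counts were 31 in M1, 20 in M2, 22 in M3, 241 in M4 and 70 in M6, of which those of M2, M3, M4 and M6 were above the detection level, at 1.01, 1.21, 5.47 and 2.04 times it. Normalized counts were 82.9, 18.6, 60.6, 582 and 47.8 in the same order, a mean of 158 ± 238 (SD, n = 5). M4 was far above the other tumors and also above FT2, the lowest of the induced tubes, while no M sample overlapped a CT sample.

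The geometric mean of miR-135a in CT was 142.7-fold that in M, and at least 132.7-fold with the count of M1, which was below detection, set to the detection level. Without M4 the log2 fold change of M against CT by edgeR moved from −6.18 to −7.79. Lower in every M sample than in any CT sample were 5.12% of the 566 miRNAs, a share that supports nothing about miR-204 and miR-135a, which were chosen on this comparison.

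miR-135b did not follow its family member. Its counts were 34, 30, 14, 33 and 25 in CT1 to CT5, of which CT1 and CT4 were just above the detection level. In FT1 to FT5 they were 47, 11, 18, 12 and 51, with FT1 and FT5 above the level, and in the tumors they were 9, 8, 5, 30 and 41 for M1, M2, M3, M4 and M6, with M6 above it. No sample exceeded its level more than 1.37 times, and all groups overlapped.

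Normalized counts of miR-135b averaged 30.8 ± 17.8 (SD, n = 5) in CT and 29.2 ± 25.6 (SD, n = 5) in M. The mean of FT was 26.6 ± 8.13 (SD, n = 5). The log2 fold change of M against CT by edgeR was −0.07 (standard error 0.552). That of FT against CT was −0.19 (standard error 0.477, adjusted p = 0.878 by edgeR, exact permutation p = 0.841), with its sign turned by scaling to the median miRNA. Differences at counts of this size could not be detected. Within a sample, the count on the miR-135b probe was between 0.103% and 0.629% of that on the miR-135a probe in CT, and between 12.4% and 58.6% in M. Probes may differ in efficiency, so these shares describe the probes and not the amounts of the miRNAs. In M, miR-135b was below detection in all tumors but M6, so the shares there carry little information. The seed partner of miR-204, miR-211, was below detection in all 22 samples, with counts between 2 and 12 in tissue. Its log2 fold change by edgeR was 0.83 (standard error 0.724, adjusted p = 0.759) in FT and 1.52 (standard error 0.675, adjusted p = 0.152) in M, both at background counts.

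miR-204 and miR-135a were low together in FT2 and in the tumors, but parted in FT4. The count of miR-135a was between 4.41 and 13.5 times that of miR-204 in the 5 control tubes and between 5.43 and 11.0 times in FT1, FT2, FT3 and FT5. In FT4 it was 304 times as high. In the tumors it was between 2.38 and 18.5 times, where miR-204 was not detected and the ratio carries little information. These ratios are of raw counts from 2 different probes, so they describe the shift between samples and not the amounts of either miRNA.

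**Figure D2:**
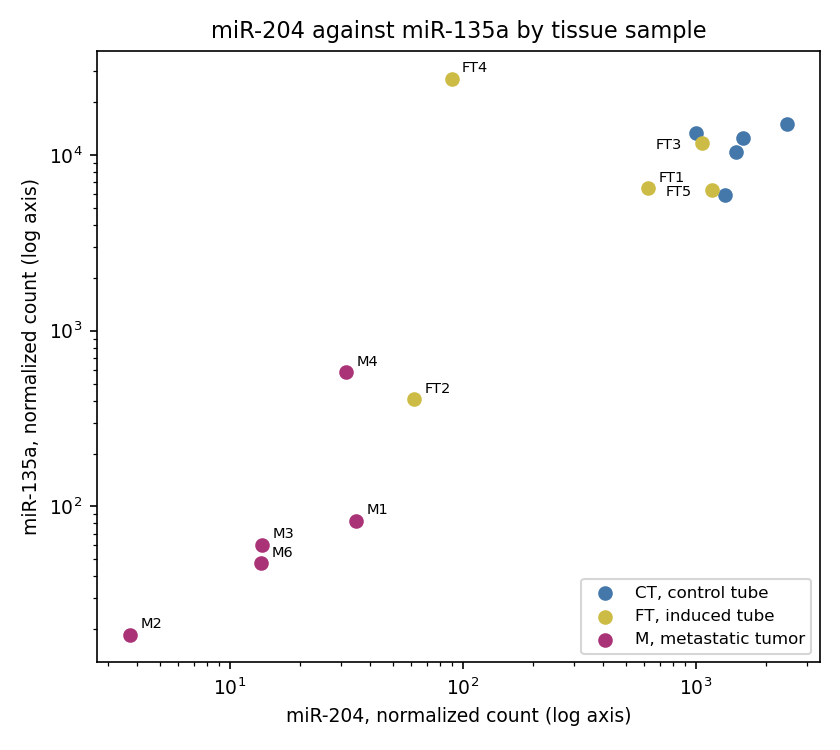
Normalized counts of miR-204 (horizontal) and miR-135a (vertical), both on log axes, with each point 1 tissue sample and FT and M samples named. FT1, FT3 and FT5 lie by the control tubes, FT2 lies by the tumors for both miRNAs, and FT4 combines a miR-204 value of 89.5 with the highest miR-135a value, 27238.

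By genotype, the tubes with the lowest miR-204 were FT2 (Brca1 -/-) and FT4 (Brca2 -/-), and the 3 tubes heterozygous for Brca2 had between 622 and 1171. miR-135a did not sort the same way, since by normalized count FT2 was the lowest and FT4 the highest tube. Among the tumors, both heterozygous and homozygous ones had miR-204 below detection. With 2 tubes of 1 kind and 3 of the other, from different genes and not alike in their further alleles, no test was made.

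The miRNAs whose levels moved most like those of each member were taken from the same 141 miRNAs, by Pearson's r of log2(normalized count + 1) over the 15 tissue samples. For miR-204 these were miR-34b-3p (r = 0.944), miR-29c (0.923), miR-34b-5p (0.920), miR-143 (0.910) and miR-135a (0.894). The arms of miR-34b belong to the miR-34 family of motile ciliated cells, and miR-143 is a miRNA of smooth muscle. For miR-135a they were miR-1 (0.914), a muscle miRNA, miR-204 (0.894), miR-30a (0.891), miR-141 (0.868), an epithelial miRNA of the miR-200 family, and miR-30d (0.852). The samples share their scaling and fall into separate groups, so r describes these samples only and carries no p. With deviations from the group means, r between miR-204 and miR-135a was 0.504, and miR-34b-3p (0.870), miR-29c (0.782) and miR-143 (0.774) led for miR-204, while miR-30d (0.774) and miR-1 (0.744) led for miR-135a. miR-135b itself was under the minimum count. Its nearest miRNA was miR-96 (0.717), and at counts this low the value says little.

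Of these, miR-34b-3p, picked for its likeness over the same samples, was low in FT2 and FT4, whereas miR-135a and miR-1 had their highest normalized counts in FT4. miR-34b-3p had normalized counts between 152 and 544 in CT, 65.6 in FT1, 18.9 in FT2, 166 in FT3, 21.9 in FT4 and 264 in FT5, and between 6.52 and 42.8 in M. Its log2 fold change by edgeR was −4.00 in M and −1.43 in FT (adjusted p = 0.635 in FT, not past the threshold). For miR-29c it was −3.81 in M and −0.58 in FT (adjusted p = 0.781 in FT by edgeR). Both miRNAs were picked for likeness to miR-204, itself chosen as lost in M. Their lower level in M is not independent of that choice and is given here without a test. Both comparisons use the same 5 CT samples.

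Some marker lists of cell types were lower in M, as miR-204 and miR-135a were, and others were not. Of the listed markers, both arms of miR-34b, miR-143, miR-1 and miR-141 were also picked above for likeness to miR-204 or miR-135a. Their calls in M, counted below, are therefore not independent of the choice of the members. The ciliated epithelium list (both arms of miR-34b with miR-34c, miR-449a and miR-449b on the panel) had 4 of 5 members past the threshold and lower in M and 0 in FT by edgeR, where 4.24% of all miRNAs were called lower in M, with a median log2 fold change of −4.00 in M against 0.29 over all miRNAs. This call count and median include miR-34c, 1 of the 4, with a log2 fold change of −9.13 in M by edgeR. The count of miR-34c was 1, the lowest value in the table, in 9 of the 15 tissue samples, CT2 and CT5 among them, so sums are given without it. They were between 311 and 1318 in CT, 294 in FT1, 92.4 in FT2, 886 in FT3, 121 in FT4 and 609 in FT5, and between 27.0 and 85.6 in M, where 0 of the list's members were detected in any tumor. FT2 and FT4, the tubes low in miR-204, were also the tubes in which 0 members of the ciliated list were detected. The part of ciliated cells in the miR-204 values was not tested.

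The miR-200 family and miR-141, miRNAs of epithelial cells in general, followed another order. Their summed normalized count was between 9285 and 11037 in CT, 15976 in FT1, 18151 in FT2, 8247 in FT3, 45391 in FT4 and 8742 in FT5. In the tumors it was 546 in M1, 2235 in M2, 242 in M3, 42010 in M4 and 8891 in M6. Of the 5 members, miR-141 was past the threshold and lower in M (−2.22, adjusted p = 0.0257 by edgeR), and 0 were in FT. Over all miRNAs, 4.24% were called lower in M. The call of miR-141, picked above for likeness to miR-135a, is not independent of the choice of miR-135a.

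FT4 and M4, the highest samples of their groups for miR-135a by normalized count, were also the highest for the epithelial sum. FT2 and M6 had an epithelial sum close to that of CT or above it with miR-135a at 407 and 47.8. M4 had miR-204 below detection. The part of the epithelial content in the miR-135a values was not tested.

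**Figure D3:**
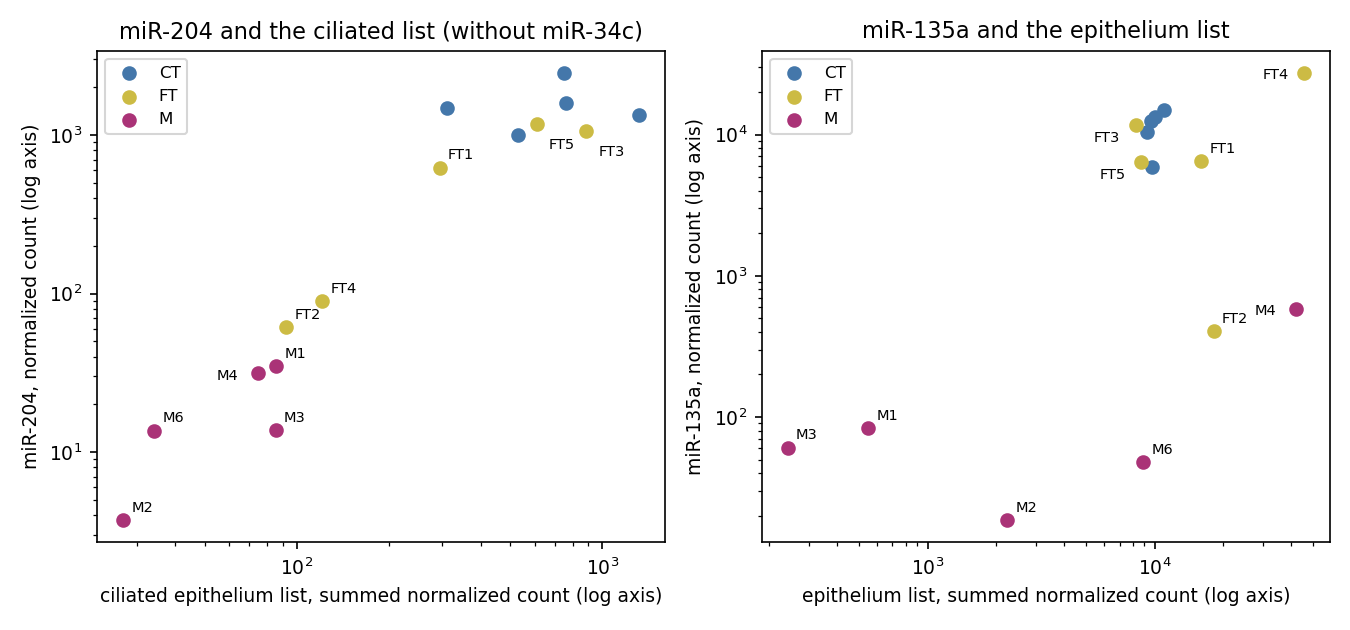
Left, miR-204 against the summed ciliated epithelium list without miR-34c; right, miR-135a against the summed epithelium list. All axes are normalized counts on log scales, and each point is 1 tissue sample (CT blue, FT yellow, M purple). FT2 and FT4 lie between the other tubes and the tumors on both axes at left, and at right M4 and M6 reach the epithelial sums of tubes while their miR-135a values, 582 and 47.8, stay below those of CT.

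The smooth muscle and stroma list held miR-1, miR-133a and miR-133b with miR-143 and miR-145. By edgeR 3 of 5 members, miR-1, miR-143 and miR-145, were past the threshold and lower in M, and 0 of 5 were in FT. Over all miRNAs, 4.24% were called lower in M. The calls of miR-1 and miR-143 have the limit of choice given above. The sum of the list was between 4713 and 13280 in CT, between 3111 and 16868 in FT and between 626 and 3821 in M. FT4, the tube with the highest normalized count of miR-135a, had the lowest sum of the tubes. The sum rests mostly on miR-143 and miR-145. By normalized count, miR-1 of the same list was highest of all tissue samples in FT4 (968), a place that may depend on the scaling, as that of miR-135a did. The leukocyte list had 1 of 5 members higher in M, miR-223, a miRNA of myeloid cells, and the erythrocyte list had 1 of 4, miR-486, where 10.2% of all miRNAs were called higher in M (14.5% in either direction). Sums of leukocyte miRNAs were between 593 and 1164 in CT and between 967 and 6301 in M, and those of erythrocyte miRNAs between 2881 and 4771 in CT and between 2233 and 14358 in M. The log2 ratio of 4 housekeeping mRNA probes to miRNA was between −0.25 and 1.43 in CT, 4.96 in FT2, 2.95 in FT4, 3.07 in FT1, −0.95 in FT3 and 0.21 in FT5, and between 2.23 and 5.12 in M. Several of these lists and the housekeeping ratio differed between CT and M, as miR-204 and miR-135a did, but not all in the same direction. The part of tissue content in the values of the members was not tested.

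In plasma the members had low counts, at most 55. In control plasma (CS2 to CS4) miR-204 had 16, 10 and 37 counts, and in TS1 to TS4 it had 15, 55, 26 and 9, of which TS2 alone exceeded its detection level, by 1.87 times. The counts of miR-135a were 25, 31 and 51 in CS2 to CS4, with CS3 and CS4 above the level, and 24, 27, 33 and 24 in TS1 to TS4, none of them above it. With the level set by the negative ligation controls, the control probes that the study's methods name for plasma, miR-135a was above it in all 7 plasma samples and miR-204 in 2. miR-135b had between 4 and 14 counts and was below detection in all 7 samples.

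The high tissue level of miR-135a had no counterpart of that size in plasma. In the mice of CT2, CT3 and CT4 it took between 5.51% and 7.31% of miRNA counts in the tube and between 0.0238% and 0.169% in plasma. For miR-204 the plasma count stayed below detection in the mouse of FT5, whose tube had 1171, and was above it in the mouse of FT3, whose tube had 1061.

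By edgeR 0% of the 566 miRNAs were past the threshold in TS against CS, with 42 at an unadjusted p below 0.05, 13 past the threshold by DESeq2 and 0 by limma. For the members the log2 fold changes by edgeR were −0.41 (standard error 0.884, adjusted p = 0.805) for miR-204, −1.64 (standard error 0.858, adjusted p = 0.542) for miR-135a and −0.98 (standard error 0.967, adjusted p = 0.605) for miR-135b, where the median over all miRNAs was −0.89 and moved to −0.05 with TMM. Lower in TS without adjustment (p below 0.05) were 5.83% of all miRNAs, and 4.59% were lower with no overlap of samples, against 0 of the 3 members in both. Without CS3 the value of miR-135a was −0.53, and with other scalings it was −0.52 (TMM), −0.47 (DESeq2) and −0.27 (median scaling). Exact permutation p-values were 0.629, 0.343 and 0.229 in the same order, in a design of 35 splits whose smallest two-sided p is 0.0571. Differences in plasma were not detectable at these counts.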

How the data were processed

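The authors deposited barcode counts of the NanoString nCounter mouse miRNA assay v1.5, as whole numbers from 1 up, for 626 probes in 22 samples (0 columns unmatched). Their nSolver normalization is not carried by these counts and was repeated on the 566 mouse miRNA probes, to the geometric mean of the 100 (tissue) or 30 (plasma) most abundant miRNAs, without background subtraction. Tissue and plasma were scaled apart. FT against CT and TS against CS were tested by the quasi-likelihood method of edgeR 4.0.16 under R 4.3.3 (all 566 miRNAs, geometric means as library sizes, no covariates, Benjamini-Hochberg, threshold 0.05). The standard error is the log2 fold change divided by the root of the F statistic. M against CT was fitted the same way, and its p-values were used for miRNAs other than the members. Alternatives covered the scaling, the test, filters on low counts, subtraction of negative controls, a replicate block and each sample left out. Permutation tests and figures used Python 3.11.15, scipy 1.17.1 and matplotlib 3.10.9, and alternatives DESeq2 1.42.0 and limma 3.58.1. The fit was tested on simulated data.

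The members and marker lists were chosen with earlier results of these data known. Named are the members, probes of the same seed, the 5 nearest miRNAs per member and the marker lists. Brca genotypes are from the study's supplement, and the other engineered alleles are not reported here. M5 and CS1 are not analysed here. Of the panel miRNAs, 417 were matched by name to RefSeq sequences, and miR-135b-5p was not among them.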

Additional observations from a re-analysis of the deposited data

Results flagged for a closer look

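The normalized count of miR-135a in M4, 582, stood apart from those of the other 4 tumors (18.6 to 82.9). The gap to the next tumor was 0.886 of the range of the group, above the critical value of 0.71 of Dixon's test for 5 samples. On the log2 scale it was 0.566, which is not above it, so M4 stands apart by this criterion on the linear scale alone. The M values were among those that chose miR-135a, so this is a description. Of 12 groups of values tested this way (3 miRNAs in CT, FT, M and TS), 1 was singled out, and chance alone singles out about 1 in 20. M4 also had the highest epithelial sum of the tumors (42010) and the highest miR-135b value of the tumors (72.5). The effect of induction in tubes minus that in plasma was −0.98 on the log2 scale for miR-204 (adjusted p = 0.674 by edgeR), 1.51 for miR-135a (0.566) and 0.74 for miR-135b (0.689), so no difference was past the threshold, and the mice shared by tubes and plasma were not taken into account.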

How the results depend on the processing

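Of 198 alternative values for the members, 179 kept their direction and side of the threshold (in M, stayed within 1 SD), and 0 of the tested ones passed the threshold. In M against CT the log2 fold change of miR-204 was −7.46 with positive controls as scaling and −9.15 with negative controls subtracted, and that of miR-135a was −7.85 with positive controls and −7.53 with quantile normalization. Leaving out single samples gave −6.70 to −6.08 for miR-204, −7.79 to −5.89 for miR-135a and −0.69 to 0.26 for miR-135b. In FT against CT the sign turned for miR-135a (0.25) and miR-135b (0.28) with median scaling and for miR-135b with quantile normalization (0.0047). Without a change of sign, miR-204 was −0.71 with median scaling and −2.25 with quantile normalization, and miR-135a −1.64 with the latter. Leaving out single samples gave −1.78 to −1.10 for miR-204, −0.88 to 0.18 for miR-135a and −0.38 to 0.14 for miR-135b. In plasma miR-204 turned to 0.34 with TMM, 0.44 with DESeq2, 0.68 with median scaling, 0.0990 with positive controls and 1.77 with negative controls subtracted, and miR-135b to 0.13 with median scaling and 0.0049 with quantile normalization. Leaving out single samples there gave −0.89 to 0.0651 (without CS3) for miR-204, −2.17 to −0.53 for miR-135a and −1.57 to −0.40 for miR-135b. Adjusted p was 0.277 to 0.948 for miR-204 in FT, at least 0.453 for miR-135a in FT and between 0.10 (replicate block) and 0.998 for miR-135a in plasma, with 0.106 by total counts. The cause of these moves was not tested. With negative ligation controls as the level, tissue samples above it numbered 11 for miR-204 (9 before), 15 for miR-135a (14 before) and 4 for miR-135b (5 before), and plasma samples above it numbered 2 for miR-204 (1 before) and 7 for miR-135a (2 before). With deviations from the group means, r of miR-204 with miR-135a was 0.504. Minimum mean counts left out miR-135b (20 in plasma, 50 in tissue) and all members (50 in plasma). The ciliated list without miR-34c was added after seeing the data.

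Equal sample numbers mark different mice, and deviations from group means of equally numbered samples correlated between −0.35 and 0.29 in FT with CT, between −0.18 and 0.12 in M with CT and between −0.01 and 0.38 in plasma. With the replicate block the log2 fold changes were −2.08 for miR-204 and −0.74 for miR-135a in FT, −6.31 and −6.87 in M, and −0.64 and −1.36 in plasma, and calls over all miRNAs went from 1 to 0 in FT, from 82 to 70 in M and from 0 to 90 in plasma.

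Over all miRNAs, calls in FT ranged from 0 to 12 (12 without FT3, 10 without FT5, 6 with DESeq2 or negative controls subtracted, 0 without CT2 or CT3). The 82 calls in M became 198 with median scaling, 190 with DESeq2, 151 with TMM, 137 with positive controls, 133 with negative controls subtracted, 52 with the tissues fitted together, 32 with the methods' t-test, and 51, 52 and 50 without CT1, CT3 and CT4. The share of calls that were higher was 70.7% (58 higher, 24 lower). Scaling by positive controls gave 17.5%, total counts 37.2%, quantile normalization 49.1%, TMM 55.0%, DESeq2 55.8% and median scaling 82.3%.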
